A study of Mus musculus with 4 samples.

Results

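Insulin-like growth factor (IGF) genes were followed across 4 mouse tumour libraries: the ligand gene Igf1, the receptor genes Igf1r and Insr, the adaptor genes Irs1 and Irs2, and the binding protein genes Igfbp2, Igfbp3, Igfbp4, Igfbp5 and Igfbp7. These 10 genes were listed by name, with earlier results of these data known, and all 10 were found among the 32286 features. Single cells were captured from tumours that the labels call MB, with 1 library for each of YSG males, SG males, YSG females and SG females. Both YSG groups carried fYap1, a floxed allele of the Hippo pathway coactivator gene Yap1, together with fSMO-M2 and hGFAPcre, and the series text calls males and females of that genotype rescued and taken at end point, under the name YSGr, while the sample titles carry no such mark. Both SG groups carried fSMO-M2 and hGFAPcre alone. All 4 groups thus share SMO-M2, a constitutively active Smoothened, and a Cre recombinase under the human GFAP promoter, which acts in neural progenitors and so reaches glia as well as the granule lineage. How many animals went into a library, their ages and the zygosity of the alleles were not given in the sources used here. Since each group is a single library, there is no replicate error and no test. Genotype, sex, animal and capture run cannot be told apart, and intervals are 95% intervals that cover counting error only.

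IGF1 and IGF2 activate the receptor tyrosine kinase IGF1R, and insulin activates its close relative INSR. Both receptors recruit IRS1 and IRS2, adaptors that pass the signal to PI3 kinase and AKT. The IGF binding proteins are secreted, and by holding the ligands they can either block or prolong signalling, while IGFBP7 binds IGFs only weakly and is abundant in vessel walls. In the cerebellum, IGF signalling acts together with Sonic hedgehog on the growth and survival of granule neuron precursors, the cells from which hedgehog-driven medulloblastoma arises in mice.

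The receptor and adaptor genes differed by less than 2-fold between the genotypes in the granule lineage, and larger differences lay in 2 neighbouring binding protein genes. Igfbp2 was 0.177 times the SG level in YSG males, but 5.76 times the SG level in YSG females. Most of the Igfbp2 UMIs (unique molecular identifiers, which count captured transcripts) of YSG females came from cells of the clusters positive for Hoxb2 and Hoxb3. Igfbp5 was higher in YSG in both sexes, 1.34 times in males and 3.11 times in females. Outside the granule lineage, Igf1 reached its highest levels in leukocytes and Igfbp7 in endothelial-like cells. Igfbp3 and Igfbp4 were higher in glial cells than in the granule lineage.

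Igfbp2 and Igfbp5 lie tail to tail on chromosome 1 of mm10. Igfbp2 runs from 72824503 to 72852474 on the plus strand, Igfbp5 runs from 72857932 to 72874884 on the minus strand, and 5457 bases separate them. Irs1 lies on the same chromosome, from 82233101 to 82291416 on the minus strand. The stretch from 250 to 21 bases before the RefSeq start site is shown for these 3 genes (RefSeq, GRCm38.p6, which is the mm10 assembly). The first pair is shown because they were the members at 5 CPM or more that differed past 2-fold between libraries in the granule lineage, and Irs1 because its level was lower in YSG in both sexes and its promoter held the same motif as that of Igfbp5. Irs2 was also lower in YSG in both sexes over the lineage, but its promoter held no such motif and is not shown. Capitals mark the TEAD motif, the letters bound by the partner factors of YAP1.
Igfbp2, chr1:72824230-72824459, plus strand: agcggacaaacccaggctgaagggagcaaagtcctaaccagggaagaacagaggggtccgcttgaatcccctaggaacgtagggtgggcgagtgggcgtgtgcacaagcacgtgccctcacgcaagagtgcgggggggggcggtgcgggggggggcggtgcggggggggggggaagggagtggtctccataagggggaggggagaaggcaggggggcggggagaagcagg
Igfbp5, chr1:72874886-72875115, minus strand: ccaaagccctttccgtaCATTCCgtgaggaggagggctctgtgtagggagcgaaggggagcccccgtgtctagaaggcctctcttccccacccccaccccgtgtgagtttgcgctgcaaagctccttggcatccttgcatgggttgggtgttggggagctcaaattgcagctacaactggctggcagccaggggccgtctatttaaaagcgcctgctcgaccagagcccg
Irs1, chr1:82291460-82291689, minus strand: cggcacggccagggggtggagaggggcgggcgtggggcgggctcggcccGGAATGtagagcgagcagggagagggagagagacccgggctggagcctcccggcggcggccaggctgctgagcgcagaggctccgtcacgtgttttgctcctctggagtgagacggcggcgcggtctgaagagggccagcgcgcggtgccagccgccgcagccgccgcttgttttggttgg

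Promoter entries were available for 9 of the 10 genes. Each window of 230 bases was searched on both strands for 3 motifs, and no member entry held more than 1 of them. The TEAD motif, GGAATG or its complement CATTCC, was in 11.8% of 32851 mouse promoters and, among the 10 member entries, in those of Igfbp5 and Irs1. The GLI motif, GACCACCCA or TGGGTGGTC, was in 0.219% of all promoters and in 0 member entries. The TATA motif, TATAAA or TTTATA, was in 11.8% of all promoters and in that of Igfbp4. These matches describe letters and do not show binding.

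The libraries held 60884286, 73147047, 58308739 and 86810253 UMIs in 7882, 8419, 7193 and 7656 kept cells of YSG males, SG males, YSG females and SG females. Yap1 had 10 UMIs in YSG males against 266 in SG males, and 3 in YSG females against 374 in SG females, although 3' tags need not lie in the deleted part. Xist and Ddx3y matched the sex labels of all 4 libraries. Pairs of libraries shared 9 to 21 barcodes, at most 0.274% of the smaller library. Cells of 25 joint clusters were grouped by marker genes, with the 10 IGF genes kept out of the clustering. In the order YSG males, SG males, YSG females and SG females, there were 2290, 2843, 1527 and 2864 cycling cells and 2209, 1092, 2484 and 898 postmitotic ones. Other granule-lineage cells numbered 2862, 3928, 1703 and 3306 in that order, and Hoxb2/Hoxb3-positive cells 0, 6, 984 and 7. Smaller groups were glial (141, 203, 69 and 172 cells), leukocyte (29, 17, 44 and 9) and stromal (4, 22, 7 and 27). Glial cells were astroglia-like and oligodendrocyte-like, and stromal cells endothelial-like and, in SG only, fibroblast-like. Cycling and postmitotic cells were named by their markers. The 15 cycling markers summed to 4119 to 5020 CPM (a gene's UMIs over all UMIs of the group, scaled as counts-per-million) in cycling cells and to 261 to 432 CPM in postmitotic cells. The granule lineage means the cycling, postmitotic, Hoxb2/Hoxb3-positive and other granule-lineage cells together. Granule-lineage markers were not required of these groups, and the other granule-lineage cells are clusters that met no other marker rule. In these, the mean log2 ratio of granule-lineage markers against all other cells was −0.51, −0.16 and −0.67 in clusters 1, 7 and 14. It was 0.18 and 0.088 in clusters 2 and 4. Among cycling and postmitotic clusters it was −0.29, −0.35, −0.18, −0.36, −0.52 and −1.25 in clusters 0, 3, 9, 11, 20 and 22. It was 0.22, 0.061, 0.060, 0.13, 0.84 and 0.33 in clusters 5, 8, 10, 13, 15 and 16. Leukocyte cluster 21 was at −0.94. Hoxb2/Hoxb3-positive clusters 12 and 18 were at −0.054 and −0.032. YSG and SG cells of this lineage lay mostly in separate clusters, so ratios over the lineage also compare clusters. Clusters 7, 8 and 10 were led by stress and early-response genes such as Hspa1a and Fos.

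**Figure D1:**
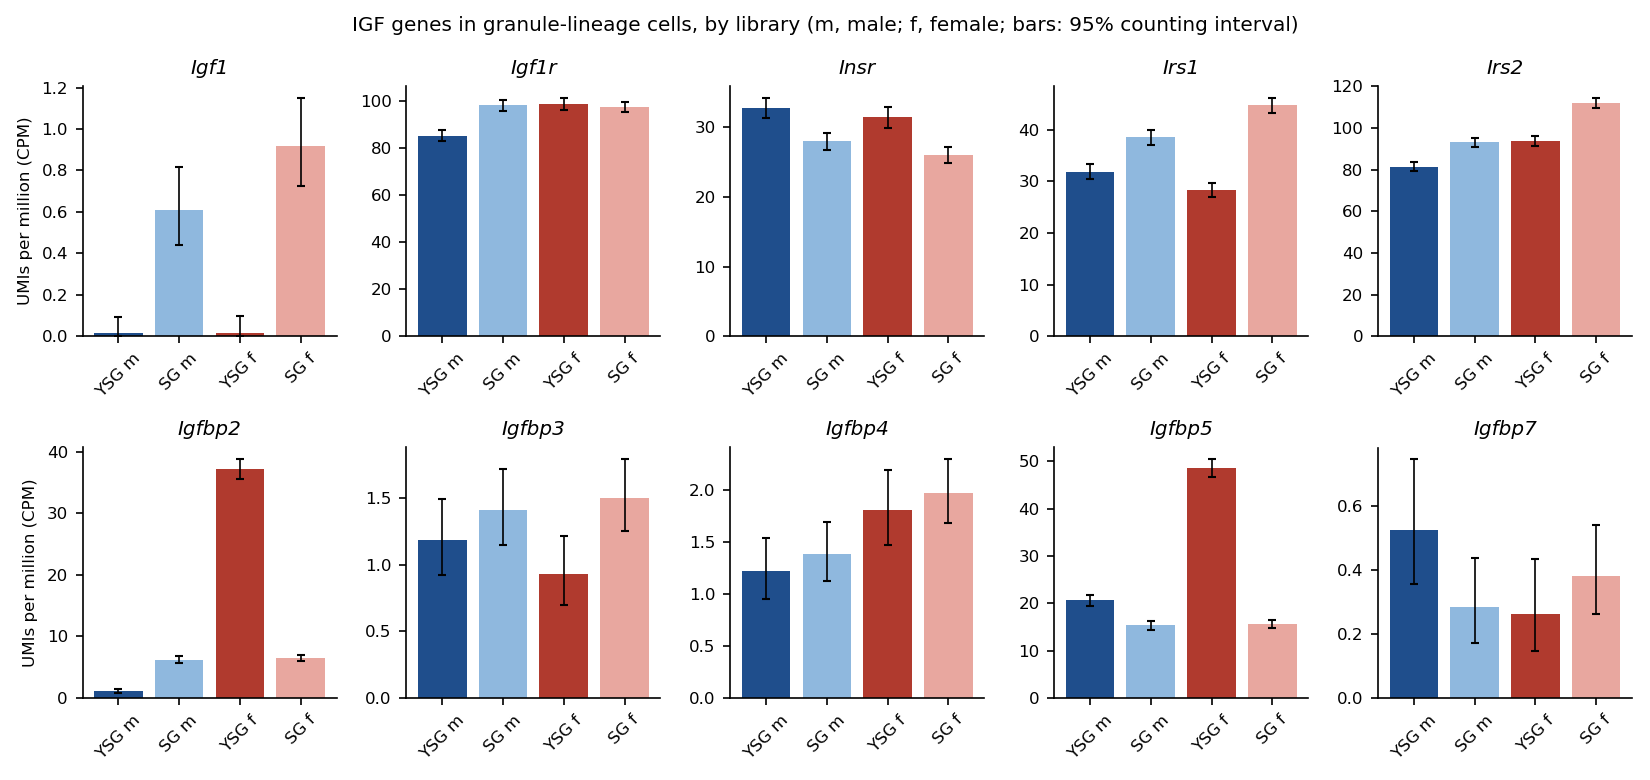
Level of each gene in granule-lineage cells, in CPM, with 1 bar per library and its 95% counting interval. Igfbp2 stood at 37.2 CPM in YSG females, against 1.10 to 6.45 CPM in the other libraries, while Igf1r stayed within 85.1 to 98.7 CPM in all 4.

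Igf1, which encodes the ligand, was nearly absent from the granule lineage of YSG tumours and scarce in that of SG tumours. There was 1 UMI in YSG males against 43 UMIs in 30 cells of SG males, and 1 UMI in YSG females against 77 UMIs in 57 cells of SG females. Both YSG libraries lay below both SG libraries, and the YSG over SG fold was 0.0278 in males, with an interval of 0.000689 to 0.164, and 0.0191 in females, with an interval of 0.000476 to 0.109. These levels were at most 0.920 CPM, below the 5 CPM at which a gene counted as measured. Of the SG UMIs, 32 in males and 44 in females came from cycling cluster 0, and 9 and 25 from cluster 1, both nearly all SG cells, so genotype and cluster cannot be told apart. Only 1 of the 57 SG female cells with Igf1, and 0 of the 30 SG male cells, had 2 or more UMIs of microglia and macrophage markers, while the 1 cell of YSG females with Igf1 did. The 7 fibroblast markers in the granule lineage were also lower in YSG. They summed to 0.897 CPM in YSG males against 9.82 CPM in SG males, and to 1.72 CPM in YSG females against 10.7 CPM in SG females, with Lum at 0 in YSG males. The part of fibroblast RNA in the Igf1 result was not tested.

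In leukocytes, Igf1 reached 114 CPM in YSG males, 44.1 CPM in SG males, 86.3 CPM in YSG females and 223 CPM in SG females. It was more than 2-fold above the granule lineage in each of the 4 libraries, with leukocyte over lineage folds of 72.5 (18.9 to 199) in SG males and 242 (94.2 to 523) in SG females. Few cells carried it: 18, 4, 15 and 7 UMIs lay in 4, 4, 5 and 3 cells of YSG males, SG males, YSG females and SG females. A cell of YSG males held 14 of the 18 UMIs. The levels of the 4 libraries therefore rest on few cells, and no difference between genotypes is read from them. In fibroblast-like cells Igf1 had 4 UMIs in SG males and 1 in SG females.

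Igf1r, the IGF1 receptor gene, varied little between libraries over the granule lineage. Its level in the granule lineage was 85.1 CPM in YSG males and 98.2 CPM in SG males, a fold of 0.867 (0.836 to 0.900). It was 98.7 CPM in YSG females and 97.3 CPM in SG females, a fold of 1.01 (0.98 to 1.05). YSG males were thus the low library, and the other 3 lay within each other's counting intervals. The YSG male level was also the lower in 7 of the 8 clusters in which both male libraries had 50 or more cells, and in 10 of the 11 shared with YSG females. Cycling cells were slightly below postmitotic cells, with cycling over postmitotic folds of 0.912 to 0.960 over the 4 libraries. Single cycling clusters varied more. Cluster 15 was at 148, 195, 207 and 219 CPM in YSG males, SG males, YSG females and SG females. Cluster 20 was at 9.4 CPM in YSG males and 36.6 CPM in YSG females, on 1 and 14 UMIs. Stromal cells were highest, at 155, 182, 354 and 351 CPM in YSG males, SG males, YSG females and SG females, and their range did not overlap those of the other groups. The YSG male value rests on 5 UMIs, with an interval of the fold over the lineage of 0.591 to 4.25. Endothelial-like cells were at 155, 327, 354 and 421 CPM in the same order, whereas fibroblast-like cells were at 44.2 CPM in SG males and 121 CPM in SG females.

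Insr, the insulin receptor gene, was slightly higher in YSG in both sexes. It was at 32.7 CPM in YSG males and 27.9 CPM in SG males, a fold of 1.17 (1.10 to 1.25), and at 31.4 CPM in YSG females and 26.0 CPM in SG females, a fold of 1.21 (1.13 to 1.29). Both YSG libraries lay above both SG libraries. Cycling cells had less Insr than postmitotic cells in every library, 23.7 to 31.0 CPM against 35.9 to 40.8 CPM, and YSG libraries held more postmitotic cells. Males had a fold of 1.04 (0.904 to 1.20) within postmitotic cells, 0.985 (0.878 to 1.11) within other granule-lineage cells and 1.24 (1.13 to 1.36) within cycling cells. Females had 1.10 (0.952 to 1.28), 0.968 (0.846 to 1.10) and 1.18 (1.06 to 1.31) in the same order, so cycling cells alone had an interval clear of 1. Insr was higher in YSG in 6 of 8 shared clusters in males and in 7 of 8 in females. Stromal cells again stood apart, with 217, 81.7, 161 and 185 CPM in YSG males, SG males, YSG females and SG females. Their folds over the granule lineage ran from 2.93 (1.73 to 4.64) in SG males to 7.11 (5.05 to 9.76) in SG females. In the endothelial-like cells alone, Insr was at 161 to 235 CPM over the 4 libraries. In leukocytes it had 2, 0, 1 and 0 UMIs in YSG males, SG males, YSG females and SG females, too few to set a level.

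Irs1, the adaptor gene, was lower in YSG in both sexes. It was at 31.8 CPM in YSG males and 38.5 CPM in SG males, a fold of 0.827 (0.779 to 0.877), and at 28.3 CPM in YSG females and 44.7 CPM in SG females, a fold of 0.634 (0.597 to 0.672). Both YSG libraries lay below both SG libraries, by less than 2-fold. In females the fold remained below 1 in cycling cells (0.656, 0.597 to 0.721), in postmitotic cells (0.749, 0.618 to 0.911) and in other granule-lineage cells (0.736, 0.656 to 0.824). In clusters with 50 or more cells of both genotypes, however, Irs1 was lower in YSG in 4 and higher in 4 of 8 in females. In males it was lower in 6 of 8. Male cycling cells were at 35.2 CPM in YSG against 40.6 CPM in SG. Male postmitotic cells were at 22.9 CPM (334 UMIs) in YSG against 25.2 CPM (189 UMIs) in SG. Cycling cells had 1.53 to 1.91 times the Irs1 level of postmitotic cells over the 4 libraries.

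Irs2, the second adaptor gene, was also slightly lower in YSG over the lineage. It was at 81.4 CPM in YSG males and 93.1 CPM in SG males, a fold of 0.875 (0.842 to 0.908), and at 93.8 CPM in YSG females and 112 CPM in SG females, a fold of 0.837 (0.809 to 0.866). In postmitotic cells the direction was the opposite, at 1.17 times the SG level in males (interval 1.05 to 1.30) and 1.23 times in females (interval 1.11 to 1.37). Cycling cells had more Irs2 than postmitotic cells in every library, by 1.19-fold in YSG males against 1.64-fold in SG males, and by 1.17-fold in YSG females against 1.89-fold in SG females. In leukocytes Irs2 was at 38.0, 33.1, 51.8 and 0 CPM in YSG males, SG males, YSG females and SG females, on 6, 3, 9 and 0 UMIs, and the interval of each fold over the lineage reached past 1.

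**Figure D2:**
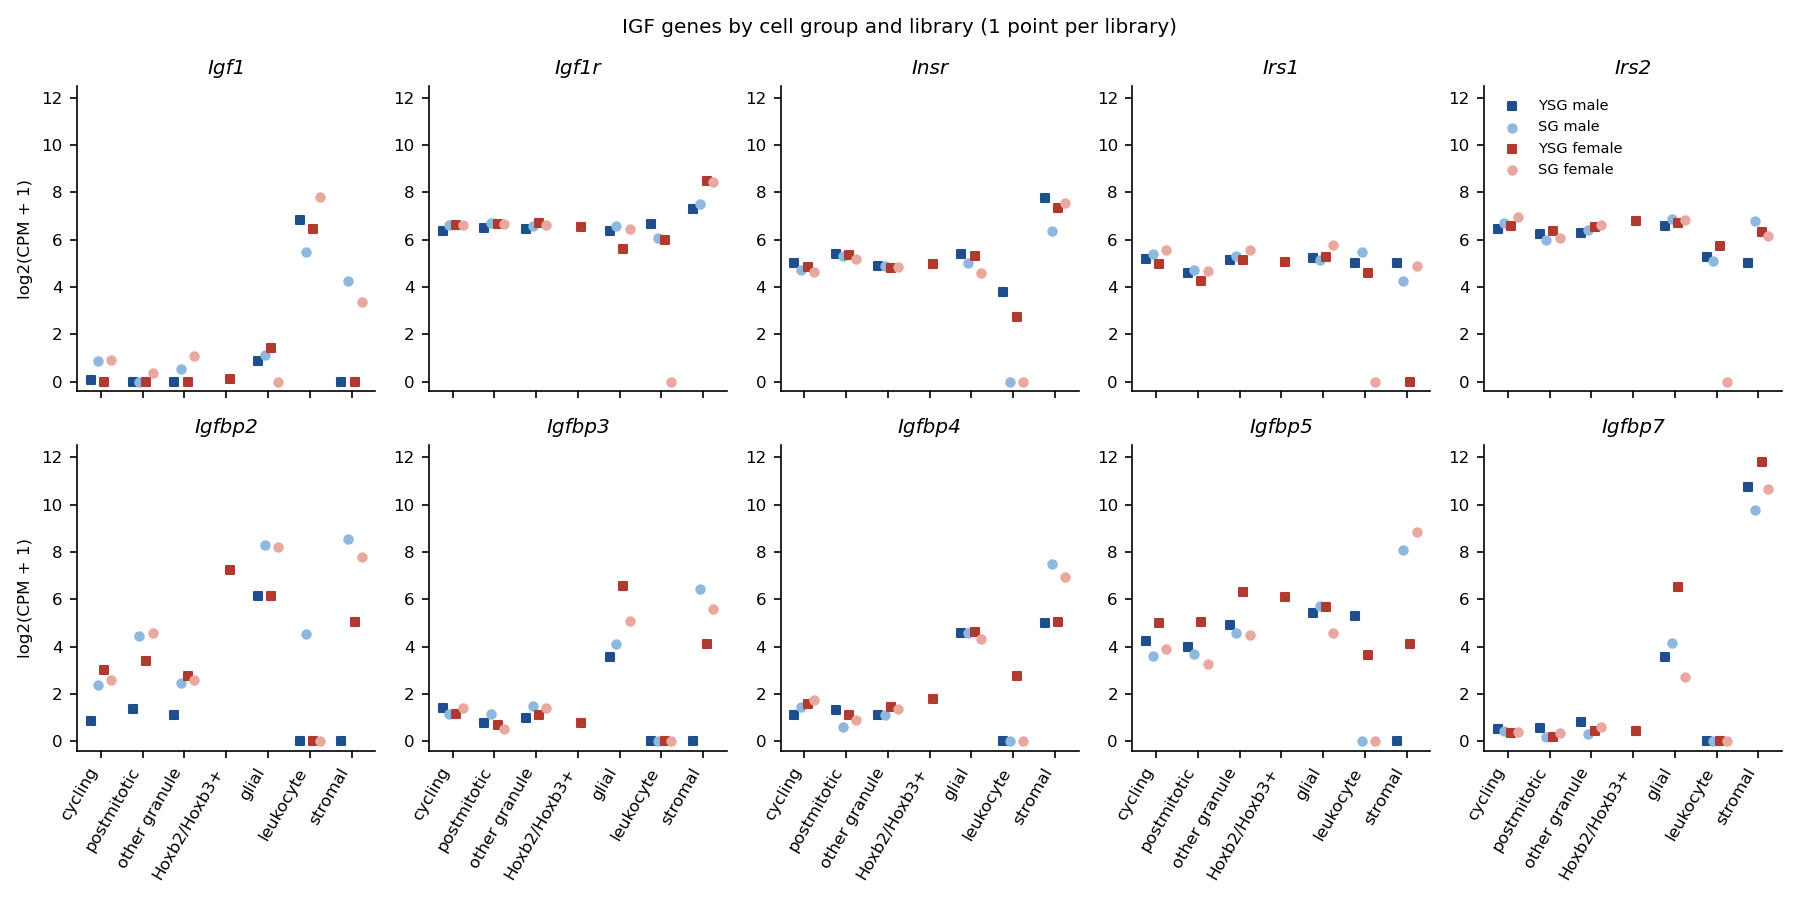
Level of each gene on the log2(CPM + 1) scale in 7 cell groups, with 1 point per library; Hoxb2/Hoxb3-positive cells are shown for YSG females only, and stromal cells of YSG males are 4 cells. Igf1 is high in leukocytes, Igfbp7 in stromal cells, and Igfbp2 in glial, Hoxb2/Hoxb3-positive and SG stromal cells.

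Igfbp2, which encodes an abundant IGF binding protein of the developing brain, went opposite ways in the sexes over the granule lineage. Its level was 1.10 CPM (65 UMIs) in YSG males and 6.21 CPM (439 UMIs) in SG males, a fold of 0.177 (0.134 to 0.230). In YSG females it was 37.2 CPM (2120 UMIs) against 6.45 CPM (540 UMIs) in SG females, a fold of 5.76 (5.24 to 6.35). The SG libraries differed by less than the counting error, with a male over female fold of 0.963 (0.847 to 1.09), and the YSG libraries lay on either side of them. Between the YSG libraries the male over female fold was 0.0296 (0.0228 to 0.0379).

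The high level in YSG females lay in the Hoxb2/Hoxb3-positive clusters, which express Hox genes of the hindbrain and were nearly confined to that library at the resolution used. At the higher resolution, clusters so named also held 394 SG male and 342 SG female cells, and Igfbp2 was then not past 2-fold in every library with such cells. With each library clustered alone they held 222 SG female cells. At the resolution used, the Hoxb2/Hoxb3-positive clusters held 1781 of the 2120 lineage UMIs of Igfbp2 in YSG females, or 84.0%. They held 20.6% of all lineage UMIs of that library. The level was 205 CPM in the 753 cells of cluster 12 and 56.2 CPM in the 231 cells of cluster 18. Hoxb2/Hoxb3-positive cells of YSG females stood at 152 CPM, 20.3 times (18.1 to 22.9) the other granule-lineage cells of that library. The 6 such cells of SG males held 10 UMIs and the 7 of SG females held 1. Without these clusters Igfbp2 was at 7.48 CPM in YSG females and 6.44 CPM in SG females, a fold of 1.16 (1.01 to 1.33), so the female difference past 2-fold rested on them. The male over female fold in YSG was then 0.147 (0.111 to 0.192). The doublet caller Scrublet marked 20.5% of these cells and 12.9% of the library, but 0% in the other 3 libraries. Without the marked cells the Hoxb2/Hoxb3-positive cells stood at 177 CPM.

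Outside these clusters Igfbp2 was lower in YSG males than in SG males in each granule-lineage group, including the other granule-lineage cells at 1.18 CPM in YSG males against 4.53 CPM in SG males. In cycling cells Igfbp2 was at 0.786 CPM in YSG males against 4.14 CPM in SG males, and at 7.02 CPM in YSG females against 4.95 CPM in SG females. Scrublet marked 20.7% of these YSG female cycling cells, and without them the level was 4.76 CPM, so the higher female value rested on marked cells. In postmitotic cells it was lower in YSG in both sexes, at 1.58 against 21.1 CPM in YSG and SG males (fold 0.0750, 0.0462 to 0.117) and at 9.33 against 22.5 CPM in YSG and SG females (fold 0.414, 0.328 to 0.522). Most of the SG postmitotic UMIs came from cluster 9, led by Robo3 and Cntn2, at 24.3 CPM in SG males and 27.4 CPM in SG females, where YSG had 6 cells in males and 23 in females. Those 23 YSG female cells held 48 of the 144 postmitotic UMIs of that library, at 337 CPM. Within postmitotic clusters 3, 8 and 9 the female direction was thus the opposite of the pooled one. Cluster 3 was at 5.514 CPM in YSG females against 1.495 CPM in SG females, on 60 UMIs and 1 UMI. Cluster 8 was at 20.11 CPM in YSG females against 10.81 CPM in SG females. In males clusters 3 and 8 were lower in YSG, at 1.073 against 2.533 CPM and at 3.384 against 15.05 CPM. In the 8 clusters with 50 or more cells of both female libraries, Igfbp2 was higher in YSG in 7. In the 8 such clusters of the males it was lower in YSG in 6, on 26 UMIs in YSG and 45 in SG. In all 11 clusters shared by the YSG libraries it was lower in males, with medians of 1.04 CPM in YSG males and 6.10 CPM in YSG females. Oligodendrocyte-like cells of YSG females were at 5.36 CPM on 2 UMIs and leukocytes at 0 UMIs, beside 7.48 CPM in the granule lineage without the Hoxb2/Hoxb3-positive clusters. The part of free RNA in that level was not tested.

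Astroglia-like cells were the main glial source of Igfbp2, and there it was lower in YSG in both sexes. It stood at 137 CPM in YSG males and 501 CPM in SG males, a fold of 0.274 (0.214 to 0.346), and at 179 CPM in YSG females and 491 CPM in SG females, a fold of 0.364 (0.257 to 0.503). The YSG female value rests on 39 UMIs in 25 cells. The 10 astroglia markers in the granule lineage summed to 980 CPM in YSG males against 1155 CPM in SG males, and to 859 CPM in YSG females against 1075 CPM in SG females. All 10 were found in each library. Gfap was among the top genes of cluster 2, and Gja1 among those of cluster 1, both of other granule-lineage cells. The sum is therefore not a measure of astroglial RNA alone. The part of such RNA in the male Igfbp2 difference was not tested. Fibroblast-like cells, present in SG only, were at 637 CPM in males and 828 CPM in females.

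Igfbp5, which encodes a binding protein that also attaches to extracellular matrix, was higher in YSG in both sexes and highest in YSG females. It was at 20.6 CPM (1218 UMIs) in YSG males and 15.3 CPM (1085 UMIs) in SG males, a fold of 1.34 (1.24 to 1.46). It was at 48.6 CPM (2769 UMIs) in YSG females and 15.6 CPM (1308 UMIs) in SG females, a fold of 3.11 (2.91 to 3.32). Both YSG libraries lay above both SG libraries, with males at 0.425 times (0.397 to 0.455) the female level in YSG and at 0.982 times (0.905 to 1.07) in SG.

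The female Igfbp5 difference was present in every granule-lineage group. The fold was 2.24 (2.0 to 2.50) in cycling cells, 3.72 (2.84 to 4.93) in postmitotic cells, 3.60 (3.23 to 4.01) in other granule-lineage cells and 2.81 (2.62 to 3.02) without the Hoxb2/Hoxb3-positive clusters. Within clusters it was higher in YSG in 8 of 8 shared clusters in females and in 7 of 8 in males, with medians of 19.0 CPM in YSG females against 6.02 CPM in SG females and 8.90 CPM in YSG males against 4.14 CPM in SG males. Among granule-lineage clusters of YSG females with 50 or more cells, Igfbp5 was highest in cluster 2 at 85.3 CPM. YSG males were at 31.0 CPM there and at 37.2 CPM in cluster 14, on 9 UMIs. Cluster 2 held 3665 cells, with 24 of SG males and 28 of SG females. In cluster 13, of postmitotic cells, it was at 76.3 CPM in YSG females and 21.8 CPM in YSG males. The Hoxb2/Hoxb3-positive cells of YSG females were at 66.4 CPM, 1.51 times (1.39 to 1.64) the rest of that lineage. Fibroblast-like cells of SG males and SG females stood at 495 and 1776 CPM, and in SG females 39 of the 88 UMIs lay in 1 cell.

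**Figure D3:**
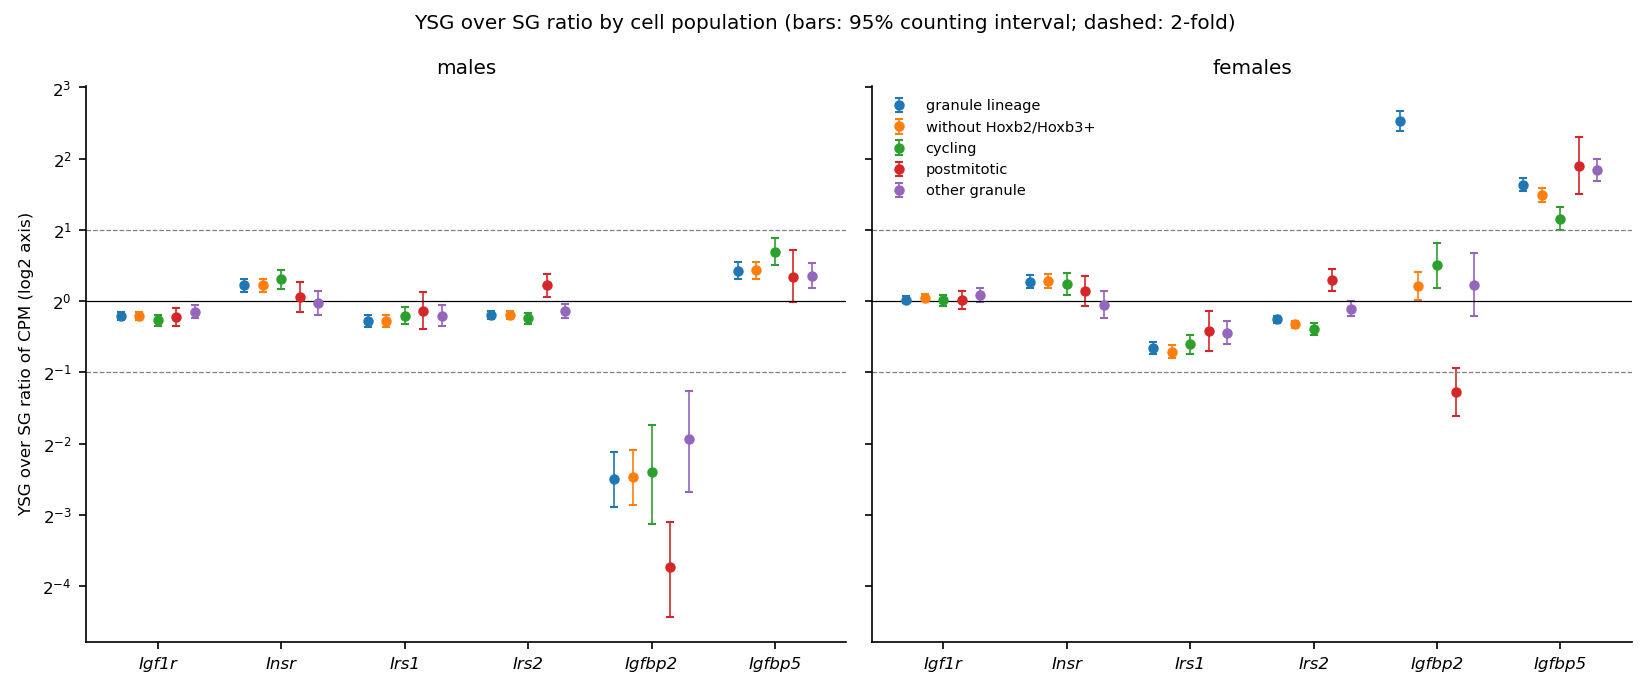
YSG over SG ratio of CPM, on a log2 axis, for the 6 genes measured in the granule lineage, by cell population and sex, with 95% counting intervals. In females the Igfbp2 ratio is 5.76 over the lineage and 1.16 without the Hoxb2/Hoxb3-positive clusters, whereas that of Igfbp5 stays above 2 in each population.

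**Figure D4:**
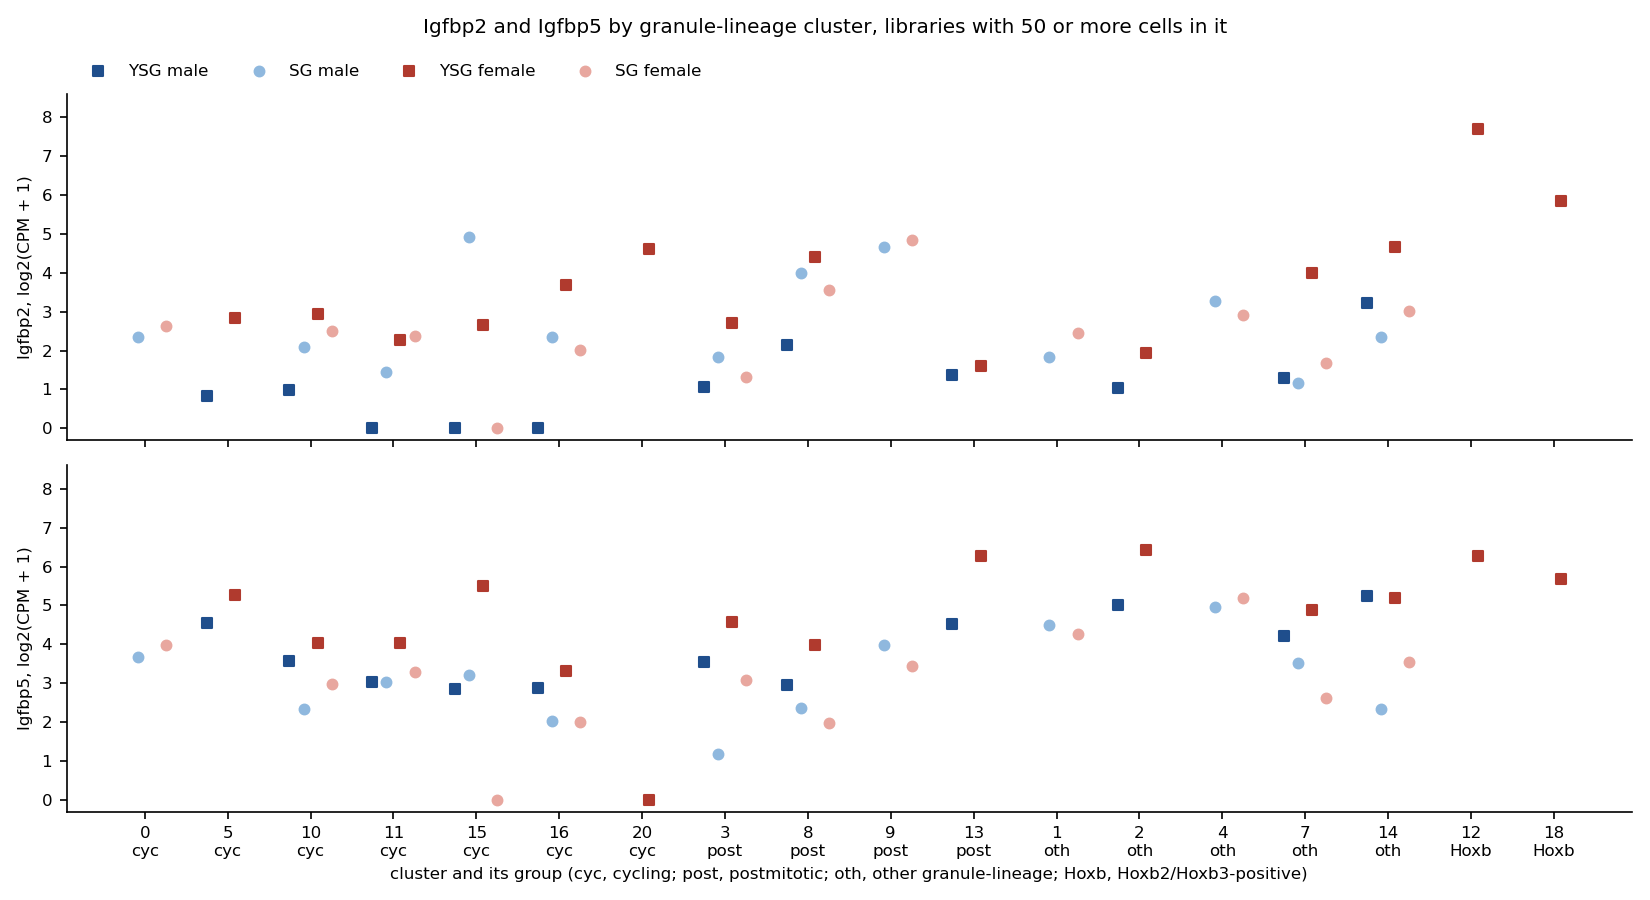
Igfbp2 and Igfbp5 on the log2(CPM + 1) scale in each granule-lineage cluster, for libraries with 50 or more cells in it. Igfbp2 peaks in cluster 12 of YSG females at 205 CPM, and the YSG female points of Igfbp5 lie above the SG female points in each cluster that holds both.

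Igfbp3, Igfbp4 and Igfbp7 were at or below 2 CPM in the granule lineage and belonged to the other cell groups. Igfbp3, whose protein carries most circulating IGF, was at 1.19 CPM in YSG males, 1.41 CPM in SG males, 0.929 CPM in YSG females and 1.51 CPM in SG females over the lineage. In glial cells it was at 10.95, 16.1, 92.9 and 32.6 CPM in the same order of libraries. That was 9.24 to 21.6 times the lineage level in 3 of them, and in YSG females the interval of the fold was 67.3 to 149. In astroglia-like cells it was at 192 CPM in YSG females against 46.0 CPM in SG females, but 4 of the 25 YSG cells held the 42 UMIs and 1 of them held 20. Those 25 cells also had 124 CPM over 7 pericyte and smooth muscle markers, against 87.1 CPM in SG females, with Pdgfrb, Abcc9 and Vtn at 0 in YSG females. Their part in the result was not tested.

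Igfbp4, which encodes a binding protein that inhibits IGF action until it is cleaved, had granule-lineage levels of 1.22, 1.39, 1.81 and 1.97 CPM in YSG males, SG males, YSG females and SG females. In glial cells it was 9.66 to 18.7 times, and in stromal cells 17.8 to 128 times the lineage level over the 4 libraries. The YSG stromal values rest on 1 UMI in males and 2 in females, and their intervals reached down to 0.635 in males and 2.13 in females. Fibroblast-like cells of SG were at 318 CPM in males and 262 CPM in females. Astroglia-like cells were at 36.4 CPM in YSG males, 34.1 CPM in SG males, 55.0 CPM in YSG females and 31.2 CPM in SG females. Oligodendrocyte-like cells were at 1.05 to 8.59 CPM over the 4 libraries, on 11 UMIs in all.

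Igfbp7 was the clearest stromal gene. Endothelial-like cells were at 1737 CPM in YSG males, 1307 CPM in SG males, 3554 CPM in YSG females and 1826 CPM in SG females, on 4, 8, 7 and 17 cells. The granule lineage was at 0.263 to 0.525 CPM, and the groups did not overlap in any library. In YSG females, 135 of 221 UMIs came from 1 cell, so the order of the libraries is not read. Fibroblast-like cells of SG were at 451 CPM in males and 868 CPM in females. Igfbp7 had 0 UMIs in the leukocytes of every library. Astroglia-like cells of YSG females were at 225 CPM on 49 UMIs in 6 cells, against 7.08 CPM in SG females, and 6 of the 7 endothelial markers, Cldn5 and Pecam1 among them, were at 0 in these YSG cells. The same cells had the 124 CPM of pericyte and smooth muscle markers given above, against 87.1 CPM in SG females, and the part of such RNA was not tested.

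Of the 10 genes, 6 were measured in the granule lineage, which means at 5 CPM or more in at least 1 of the compared libraries. Between YSG and SG males 1 of the 6 was past 2-fold, Igfbp2 (lower), where 3.95% of all 10114 measured genes were. Between YSG and SG females 2 of the 6 were, Igfbp2 and Igfbp5 (both higher), against 5.52% of 10321 genes. Within cell groups, males had 0 of 5 measured members past 2-fold in cycling cells (4.39% of all genes), 0 of 5 in other granule-lineage cells (3.47%) and Igfbp2 of 6 in postmitotic cells (2.56%). Igfbp2 was under 5 CPM in both male libraries in the cycling and other granule-lineage cells and so not counted there, but its YSG over SG fold was 0.190 (0.114 to 0.300) and 0.261 (0.156 to 0.419). Females had Igfbp5 alone of 6 in cycling cells (5.89%), in other granule-lineage cells (4.6%) and without the Hoxb2/Hoxb3-positive clusters (6.67%), and Igfbp2 and Igfbp5 in postmitotic cells (3.81%). The medians over the granule lineage of the 6 log2 ratios were −0.20 in males and 0.14 in females, beside −0.0068 and 0.000957 over all measured genes. Between males and females, Igfbp2 and Igfbp5 were past 2-fold in YSG (both lower in males, 1.49% of all genes), and 0 members were in SG (0.14% of all genes). The male and female comparisons of 1 genotype use the same libraries as the genotype comparisons, so the 4 counts are not independent.

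Counted over cell groups, a gene had to be past 2-fold the same way in each library. For cycling over postmitotic cells 0 of 6 measured members passed, against 8.11% of all genes. For glial cells over the granule lineage Igfbp3, Igfbp4 and Igfbp7 passed (7.21% of all genes), and for stromal cells Insr, Igfbp4 and Igfbp7 (8.11%). Igfbp2 in glial cells was 63.5, 49.7 and 46.35 times the lineage level in YSG males, SG males and SG females. It did not pass because it was 1.86 times in YSG females, whose lineage includes the Hoxb2/Hoxb3-positive cells. For leukocytes Igf1 passed as higher and Insr as lower (5.69%), but Insr had 3 leukocyte UMIs in all, and a count of 0 allows up to 1.18 times the lineage level in SG males and 3.67 times in SG females. For Hoxb2/Hoxb3-positive cells over other granule-lineage cells, in YSG females alone, Igfbp2 passed (3.41%).

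Of 45 further genes of the insulin and IGF pathway, 31 were measured in males and 33 in females. The only one past 2-fold higher in YSG in both sexes was Igf2r, whose product takes up IGF2 for degradation. Igf2r was at 17.5 CPM in YSG males against 6.45 CPM in SG males, a fold of 2.72 (2.43 to 3.04), and at 22.7 CPM in YSG females against 8.52 CPM in SG females, a fold of 2.67 (2.44 to 2.93). Past 2-fold lower in YSG in both sexes were the ligand gene Igf2, at a log2 ratio of −4.40 (males) and −1.94 (females), and Grb10, an imprinted adaptor that inhibits both receptors, with −2.69 and −3.61. In females the Igf2 ratio was further from 0 within cycling cells (−3.08) and within postmitotic cells (−2.94) than over the lineage, and these cells held 72 and 14 of the 547 lineage UMIs of YSG females. Over the lineage Igf2 was past 2-fold lower in YSG males than in YSG females. Without the Hoxb2/Hoxb3-positive clusters it was under 5 CPM in both YSG libraries. Igf2 was still past 2-fold lower in YSG than in SG without those clusters, in both sexes. Their part in the size of the female ratio was not tested. Foxo1, a transcription factor held out of the nucleus by AKT, was past 2-fold in females only (−1.43, against −0.85 in males), and the difference between the sexes was not tested. The regulatory PI3 kinase subunit genes Pik3r1, Pik3r2 and Pik3r3 were higher in YSG by less than 2-fold on that scale, at 0.63, 0.87 and 0.47 in males and 0.73, 0.97 and 0.74 in females. The kinase genes Akt1, Akt2 and Mtor had log2 ratios between −0.39 and 0.18 in both sexes. In all, 3 of 31 were past 2-fold in males, where 3.95% of all measured genes were, and 4 of 33 in females, where 5.52% were, with medians of −0.0077 in males and −0.05 in females.

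**Figure D5:**
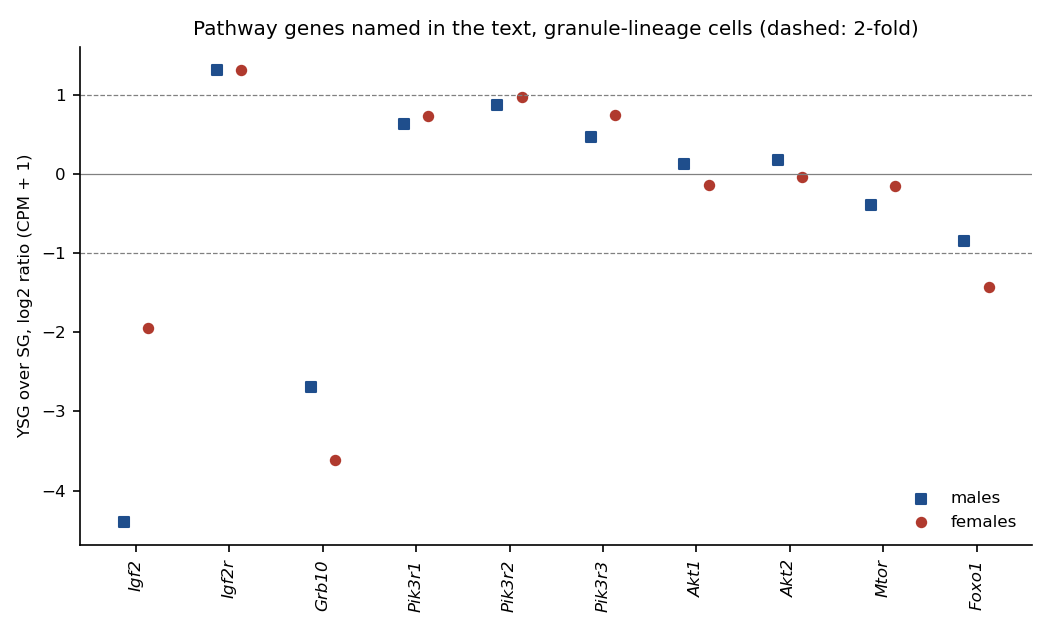
YSG over SG log2 ratio (CPM + 1) in granule-lineage cells for the 10 pathway genes named in the text, males as squares and females as circles, with dashed lines at 2-fold. Igf2 and Grb10 lie far below the lower line in both sexes, Igf2r above the upper line, and Akt1, Akt2 and Mtor between −0.39 and 0.18.

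Genes with the most similar pattern were sought over 23 profiles of library by cell group, among 12051 genes, by Pearson's r of log2(CPM + 1). The other granule-lineage cells were not among these groups. The profiles share libraries and include small groups, such as the 6 Hoxb2/Hoxb3-positive cells of SG males and the 7 of SG females, so r is a description. Igf1 was closest to Arhgdib, Gpsm3 and Gngt2 (r = 0.974, 0.971 and 0.971), and Igfbp7 to Htra3, Wfdc1 and Bend5 (0.962, 0.960 and 0.958). Igfbp3 was closest to Rgs5, Mfsd2a and Prss23 (0.963, 0.937 and 0.933), and Igfbp4 to Nid1, Pld1 and Gng11 (0.964, 0.961 and 0.958). For Igf1r the closest were Slc39a10, Esyt2 and Tnfaip1 (0.976, 0.969 and 0.967), and for Insr they were Plcb4, Hspb1 and Fosl2 (0.925, 0.916 and 0.904). Irs1 was closest to Dnajc24, Bicral and Cdk5rap3 (0.973, 0.948 and 0.945), and Irs2 to Cfap20, Ftsj3 and Ptpa (0.960, 0.954 and 0.951). The weakest likeness was that of Igfbp5, with Nupr1, Arl2 and Jmjd8 (0.860, 0.845 and 0.838), and of Igfbp2, with Uqcrb, Zfp618 and Per3 (0.807, 0.803 and 0.80).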

How the data were processed

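The authors deposited raw UMI counts (unique molecular identifiers, so copies of 1 molecule count once) of every gene in every barcode; Cell Ranger 5.0.1 made them, per the file headers, and the submitters' processing notes name mm10. A barcode was kept from 500 UMIs and 300 genes upward if mitochondrial genes held no more than 20% of its UMIs. Doublets were kept, because Scrublet's threshold marked 0% of cells in 3 libraries and 12.9% in YSG females; levels without the marked cells were added after seeing the data. Counts were scaled to 10000 per cell, and 2000 variable genes without the 10 members, the pathway list, sex-linked genes and Yap1 were reduced to 30 components and partitioned with leidenalg 0.10.2 at resolution 1.0, with no batch correction. Marker lists named the clusters by a scoring rule set after the clusters were seen, and 1 cluster of low UMI count stayed unnamed. The members and gene lists were chosen with earlier results of these data known. UMIs were summed per library and group and divided by the group's total (CPM). Folds are ratios of CPM with exact conditional binomial 95% intervals, which treat each UMI as independent. A gene was called past 2-fold on log2 ratios after adding 1 CPM to both sides, if 1 side reached 5 CPM. A UMI count of 0 allows up to 3 counts. Named genes are all members, the pathway genes past 2-fold the same way in both sexes, and the 3 genes nearest to each member; Foxo1, the PI3 kinase subunits and the kinases were added after their values were seen. The planned comparison of Hoxb2/Hoxb3-positive cells could be made in YSG females only, where there were 50 or more such cells. The ratio code was tested on simulated data. Gene positions are from GENCODE M21, an annotation of mm10. Software was Python 3.11.15, scanpy 1.11.5, scikit-learn 1.9.0, numpy 2.4.6, scipy 1.17.1, pandas 2.3.3 and matplotlib 3.10.9. Some pathway genes enter the counts but are not reported here by name.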

Additional observations from a re-analysis of the deposited data

Results flagged for a closer look

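The YSG over SG log2 ratio of Igfbp2 had opposite signs in the sexes, and counting intervals clear of no change in both, in 2 populations. Over the granule lineage it was −1.78 in males and 2.36 in females. In cycling cells it was −1.52 in males and 0.43 in females, where the YSG level was 7.02 CPM with and 4.76 CPM without the cells that Scrublet marked, beside 4.95 CPM in SG. The difference between the sexes was not tested, since each group is 1 library. Cells of the unnamed cluster, which stand outside the comparisons, had 28.9 CPM of Igfbp2 in YSG females against 8.22 CPM in SG females, on 13 and 4 UMIs. They had 64.4 CPM of Igfbp5 in YSG females against 24.7 CPM in SG females, on 29 and 12 UMIs.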

How the results depend on the processing

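No paired analysis was possible because each group is 1 library. The count of members past 2-fold in YSG over SG males, 1 as reported, was 0 with a pseudocount of 5 CPM, with a minimum level of 20 CPM, in cycling clusters only and in the other granule-lineage clusters only. In the last 2, Igfbp2 was under 5 CPM while its fold was 0.190 and 0.261. In females, 2 as reported, it was 1 in cycling clusters only, in the other granule-lineage clusters only and without the Hoxb2/Hoxb3-positive clusters. The settings with other granule-lineage clusters only and without the Hoxb2/Hoxb3-positive clusters were chosen after seeing the data. For male over female in YSG, 2 as reported, it was 1 in cycling clusters only. For Hoxb2/Hoxb3-positive cells, 1 as reported, it was 0 with clusters at the higher resolution, where that group also held 394 SG male and 342 SG female cells. With each library clustered alone it was 4 for leukocytes and 7 for stromal cells, against 2 and 3 as reported. Those counts are over fewer libraries, since no leukocytes were named in SG males and no stromal cells in either YSG library. The log2 ratio of Igfbp2 in females was −1.19 in postmitotic clusters only, against 2.36 as reported. Without each library in turn, the cell-group counts were 0 for cycling over postmitotic, 1 for Hoxb2/Hoxb3-positive cells, 3 to 4 for glial cells, 2 to 3 for leukocytes and 3 to 4 for stromal cells. The other causes were not tested. The number of cells limits the leukocyte and stromal levels, and counting error limits Igf1, Igfbp3, Igfbp4 and Igfbp7 in the lineage.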
